A study of Homo sapiens with 6 samples.

Results

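The genes described here build, check and export proteins in the endoplasmic reticulum (ER), together with the sensors of the unfolded protein response (UPR). They are 52 gene symbols, named for their role, in a choice made with earlier results of these data known, and all 52 of the 55765 gene symbols counted were found. They fall into 12 folding chaperones and co-factors, 7 enzymes of disulfide formation, 7 stress sensors and transcription factors, 10 genes of ER-associated degradation (ERAD), 7 genes of protein translocation into the ER and 9 genes of vesicle transport. The samples were 6 RNA-seq libraries of C4-2, a castration-resistant human prostate cancer cell line that is derived from LNCaP. The cells were grown in DMEM with 5% FBS and treated for 72 h, 3 with the solvent DMSO and 3 with 1 nM of R1881 (methyltrienolone), a synthetic androgen that is slowly metabolized. This dose is called a supraphysiological androgen level (SAL). The comparison asks which of these genes responded to SAL. It is limited to 1 cell line, 1 dose and 1 time point, and in bulk RNA a change in the make-up of the cells and a change per cell cannot be told apart. The study states that RNA-seq was repeated independently for each condition, while the labels give only replicate numbers.

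Secreted and membrane proteins enter the ER through the SEC61 channel, fold with the help of chaperones and disulfide isomerases, and leave in COPII vesicles. When unfolded protein accumulates, 3 sensors in the ER membrane respond. IRE1 (gene ERN1) splices the XBP1 mRNA into an active form, ATF6 is cut in the Golgi into a transcription factor, and PERK (gene EIF2AK3) lowers translation and favours ATF4. The spliced XBP1 protein and the cut ATF6 raise chaperone and ERAD genes through short promoter elements. Prostate luminal cells are secretory, and androgen drives their production of secreted proteins such as the kallikreins.

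The libraries held 7864471 to 12532355 reads on genes, of which 11.9% to 27.8% were on rRNA genes that were left out. Reads assigned to no gene made up 24.0% to 48.3% of all reads tallied. The androgen-induced gene KLK3 was at 587, 1200 and 612 CPM (counts scaled to a common library size, with factors by TMM, the trimmed mean of M-values) in DMSO replicates 1, 2 and 3 and at 1482, 2535 and 1411 CPM in the SAL replicates, higher in SAL in all 3 pairs. The luminal genes FOLH1, HOXB13, FOXA1, KRT8 and KRT18 were detected in all 6 libraries. Of these, FOXA1, KRT8 and KRT18 rose with SAL, by 0.33, 2.45 and 1.71 on the log2 scale, and their part in the results on the members was not tested. Of 10 markers of basal, neuroendocrine, stromal, endothelial and immune cells, KRT5, COL1A2, PTPRC and CD3E had no count in any library, and the summed level of the 10 was 3.72 to 16.5 CPM in DMSO and 3.46 to 14.9 CPM in SAL. The replicate numbers matched the libraries in pairs, and the members followed this too. Over the members, a DMSO library and the SAL library of the same number departed from their group means together, with correlations of 0.96, 0.93 and 0.93. The replicate number took 80.8% of the members' sum of squares on the log2 scale and the treatment 17.0%. Each change is therefore taken within pairs of the same replicate number.

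Of the 52 members, 32 rose under SAL and 0 fell (edgeR's quasi-likelihood test with the replicate number as a block, adjusted p under 0.05 over 16835 genes). Among all genes tested, 11.5% rose and 9.37% fell. At an unadjusted p under 0.05, 38 members were higher and 0 lower. The share of all genes at that threshold was not counted, so this count has no background to be read against. DESeq2 with the same block gave 25 members higher and 0 lower at its adjusted threshold, against 7.66% and 5.64% of all genes. The median log2 fold change of the members was 0.38, against -0.0011 over all genes. The log2 fold change was positive for 51 of the 52 members. In 43 members (82.7%) the SAL library was higher in all 3 pairs, against 25.9% of all genes, and no member was lower in all 3. The summed level of the members was 9050, 13007 and 10344 CPM in the DMSO libraries and 11883, 16117 and 13625 CPM in the SAL libraries, a ratio of 1.31, 1.24 and 1.32 in the pairs. The number of calls rests on replicate 3, among all genes as among the members. Without it, with 4 libraries and 1 residual degree of freedom, 4.41% of all genes rose and 8 members passed the test. These 8 were DNAJB9, PDIA5, ERO1L, ERN1, CREB3, EDEM3, SEC24D and KDELR3, and all 32 kept a positive log2 fold change. Without replicate 1 and without replicate 2, likewise with 4 libraries and 1 residual degree of freedom, 33 and 29 members rose, against 14.6% and 9.1% of all genes. Without the replicate block no member passed, against 0.107% of all genes rising and 0.0178% falling. There, 3 members were at an unadjusted p under 0.05, again with no share of all genes counted.

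**Figure D1:**
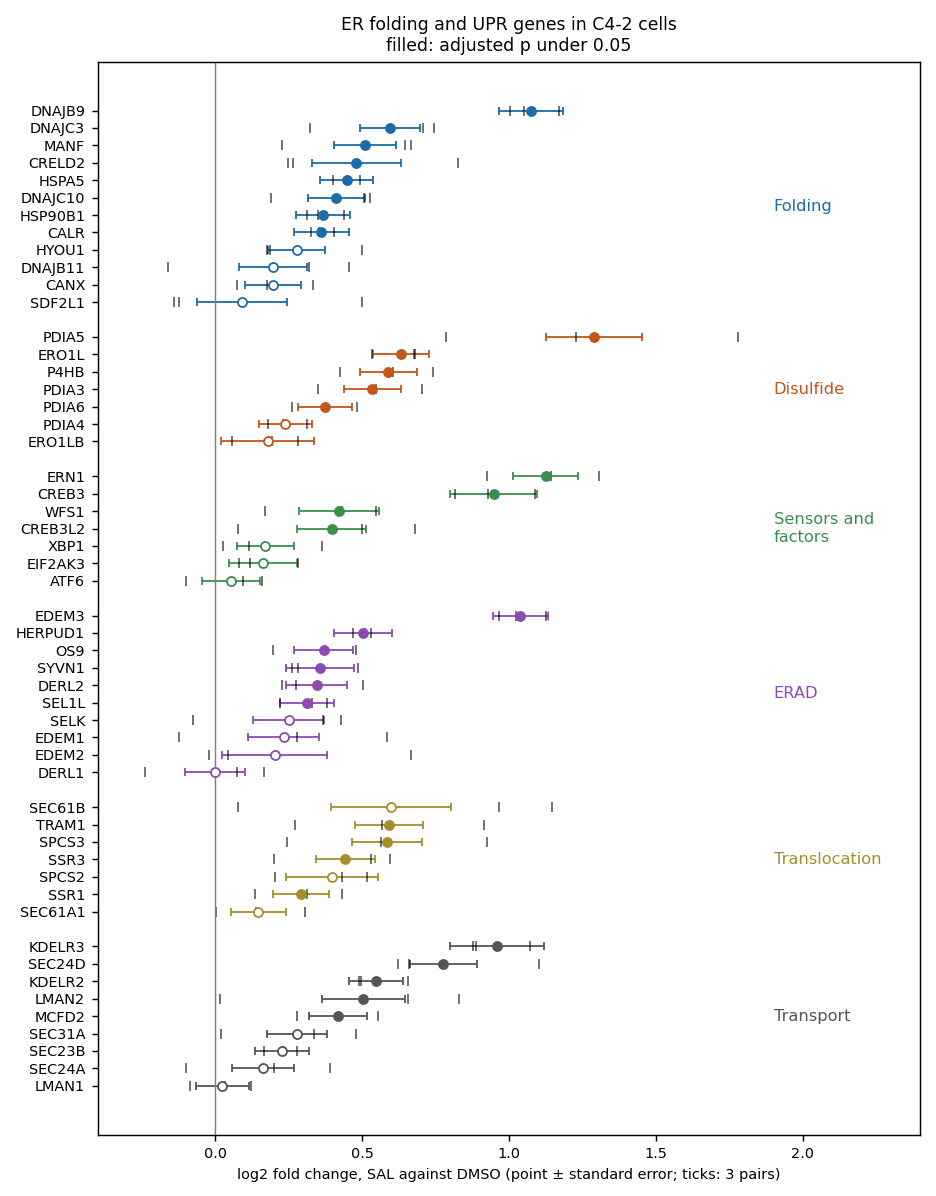
Log2 fold change of each of the 52 members, SAL against DMSO, ordered by role on the vertical axis. Points with bars are the edgeR estimate ± its standard error, filled where the adjusted p is under 0.05, and black ticks are the differences of log2 CPM in the 3 pairs. The 4 members above a log2 fold change of 1 are PDIA5, ERN1, DNAJB9 and EDEM3, and the only estimate below 0 is that of DERL1.

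Some of these genes carry known stress elements in their promoters, and sequences are shown here as a description. Whether the elements bear on the changes under SAL was not tested. The windows searched are those of RefSeq, 250 bases before to 50 bases after the annotated transcription start, and 47 members have a window. TRAM1, SEC24D, PDIA3, KDELR2 and DERL1 have none. The ER stress element (ERSE) is CCAAT, 9 bases of any kind and CCACG. The element ERSE-II is ATTGG, 1 base of any kind and CCACG. The UPR element (UPRE) was searched as TGACGTGG. All were searched on both strands. CCACG or its complement CGTGG is shared by all 3 elements, so that matches can overlap. ERSE was in 7 of the 47 windows (14.9%) and in 0.0769% of all 35116 windows. ERSE-II was in 3 (6.38%) against 0.0541%, and UPRE in 4 (8.51%) against 0.729%. Over the windows of the genes tested here, the shares were 0.144% for ERSE, 0.106% for ERSE-II and 0.932% for UPRE. In a wider list of ER genes described further on, with 125 windows, ERSE and ERSE-II were in 0 and UPRE was in 9 (7.2%). In 13 of the 47 windows (27.7%) at least 1 of the 3 was found, against 0.857% of all windows. Some of these members are textbook targets through which such elements were defined, so the share is a description of the list. The share was 7 of the 28 with a window that rose (25.0%) and 6 of the 19 that did not pass the test (31.6%). The full androgen response element, AGAACA and TGTTCT with 3 bases between them, was in no member's window and in 1 of the 35116. It was in 0 of the 10410 windows of the genes tested. An exact match is so rare that its absence from 47 windows says nothing about the members. A match is not a measured binding site.

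The stretches below lie before the annotated start, read 5′ to 3′ on the strand of the gene, with the fixed letters of each matched element in capitals and coordinates in GRCh37. HSPA5 (chr9:128003660-128003698, minus strand) has an ERSE on its own strand, and XBP1 (chr22:29196581-29196619, minus strand) has an ERSE on its own strand too.
HSPA5: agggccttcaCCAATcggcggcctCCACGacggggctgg
XBP1: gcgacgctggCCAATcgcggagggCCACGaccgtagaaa
CALR (chr19:13049188-13049226, plus strand) and CRELD2 (chr22:50312192-50312230, plus strand) have the element on the opposite strand, where it reads CGTGG first.
CALR: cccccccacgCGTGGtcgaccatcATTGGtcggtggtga
CRELD2: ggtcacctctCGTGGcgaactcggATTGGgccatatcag
HERPUD1 (chr16:56965927-56965957, plus strand) and SDF2L1 (chr22:21996393-21996423, plus strand) each have an ERSE-II.
HERPUD1: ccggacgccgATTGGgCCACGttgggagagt
SDF2L1: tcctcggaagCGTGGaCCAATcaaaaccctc
KDELR3 (chr22:38864045-38864072, plus strand) and DNAJC10 (chr2:183580849-183580876, plus strand) each have a UPRE on the opposite strand.
KDELR3: gccgccctggCCACGTCAccgcccggcc
DNAJC10: gcgcacaccgCCACGTCAacctaaacct
HYOU1 (chr11:118927975-118928114, minus strand) has a UPRE that overlaps an ERSE-II, and a further ERSE-II nearer to the start.
HYOU1: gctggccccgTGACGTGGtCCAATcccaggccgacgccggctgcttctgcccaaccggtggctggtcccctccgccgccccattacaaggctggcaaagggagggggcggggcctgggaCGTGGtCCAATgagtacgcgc
Some of these pairs of genes hold members with different calls. The log2 fold change was 0.45 for HSPA5 and 0.17 for XBP1, and it was 0.50 for HERPUD1 and 0.09 for SDF2L1. HSPA5 and HERPUD1 passed the test, and XBP1 and SDF2L1 did not. CALR and CRELD2 (0.36 and 0.48) both passed, as did KDELR3 and DNAJC10 (0.96 and 0.41). Further members with a match, whose sequences are not shown, were HSP90B1, CANX and ERO1LB with an ERSE and SEC24A with a UPRE. HSP90B1 (0.37) passed the test, and CANX, ERO1LB and SEC24A (0.19, 0.18 and 0.16) did not. Differences between the genes of a pair were not tested.

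**Figure D2:**
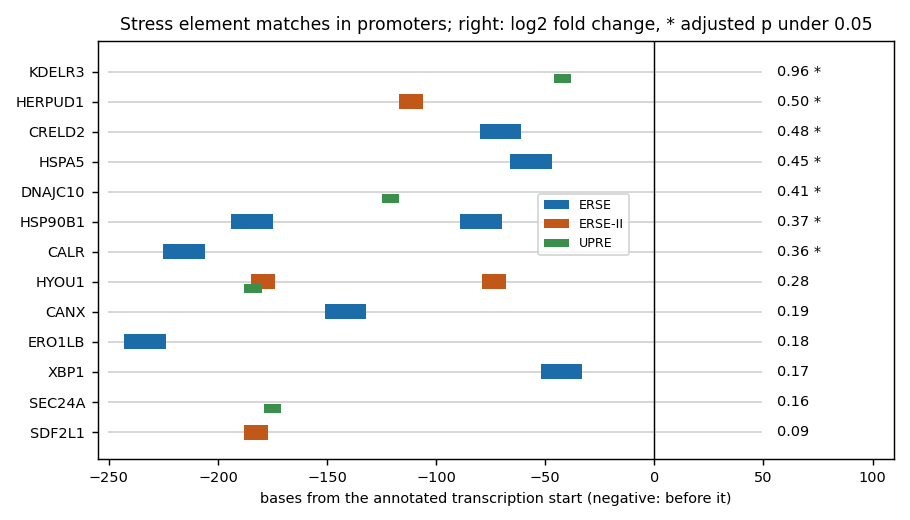
Matches to ERSE, ERSE-II and UPRE in the promoter windows of the 13 members that have any, by distance in bases from the annotated transcription start (0). Members are ordered by log2 fold change, printed at the right with an asterisk where the adjusted p is under 0.05, and matches are found from KDELR3 at 0.96 down to SDF2L1 at 0.09.

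Of the 12 folding chaperones and co-factors, 8 rose and the other 4 did not pass the test. Their median on the log2 scale was 0.39. DNAJB9, a co-chaperone that IRE1 signalling is known to induce and that in turn restrains IRE1, was at 39.0, 17.2 and 26.6 CPM in DMSO replicates 1, 2 and 3 and at 78.4, 39.0 and 55.3 CPM in the SAL replicates. Its SAL libraries lay at or above the highest DMSO library, by a small margin in replicate 2. DNAJB9 rose by 1.07 on the log2 scale (standard error, SE, 0.11, adjusted p = 4.30e-06 from edgeR), close to a doubling in each pair (1.00, 1.17 and 1.05). HSPA5 (BiP), the HSP70 chaperone of the ER lumen and the usual readout of the UPR, was at 376, 620 and 489 CPM in DMSO and at 496, 873 and 667 CPM in SAL. The groups overlapped, but each SAL library was above its DMSO partner by a similar step. HSPA5 rose 1.36-fold (0.45 on the log2 scale, SE 0.09, adjusted p = 0.00213).

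HSP90B1 (GRP94), the HSP90 chaperone of the ER, was at 1219, 650.2 and 898 CPM in DMSO and at 1515, 829 and 1215 CPM in SAL. The lectin chaperone and calcium store CALR was at 759, 3388 and 1721 CPM in DMSO and at 1005, 4330 and 2154 CPM in SAL. For both, replicates 1 and 2 were at opposite ends, in opposite order, while the step within a pair hardly varied. Their log2 fold changes were 0.37 and 0.36 (adjusted p = 0.00975 and 0.0125 from edgeR), with 0.31 to 0.44 in the pairs of HSP90B1 and 0.32 to 0.40 in those of CALR. DNAJC3 (P58IPK), a co-chaperone of BiP, was at 205, 133 and 165 CPM in DMSO and at 343, 166 and 269 CPM in SAL, a log2 difference of 0.59 (adjusted p = 0.000636). DNAJC10 (ERdj5), a co-chaperone that reduces disulfides, changed by 0.41 (adjusted p = 0.00673).

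MANF, a secreted ER stress protein, was at 132, 104 and 60.4 CPM in DMSO and at 155, 166 and 94.5 CPM in SAL. CRELD2, another ER stress-inducible protein, was at 14.9, 25.0 and 14.8 CPM in DMSO and at 17.7, 44.5 and 17.9 CPM in SAL. For CRELD2 most of the rise was in replicate 2 (0.82, against 0.25 and 0.26 in replicates 1 and 3). MANF rose by 0.51 on the log2 scale (adjusted p = 0.00285) and CRELD2 by 0.48 (adjusted p = 0.0351). CRELD2 did not pass with DESeq2, without replicate 2 or without replicate 3. Without replicate 3, only DNAJB9 of the 8 passed the test.

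The 4 folding members that did not pass were HYOU1, DNAJB11, CANX and SDF2L1. HYOU1 (GRP170), which helps BiP to exchange nucleotide, was at 60.3, 570 and 365 CPM in DMSO and at 85.3, 648 and 413 CPM in SAL, higher in every pair, and the log2 change was 0.28 (adjusted p = 0.0569). The membrane lectin chaperone CANX and the BiP co-chaperone DNAJB11 had log2 fold changes of 0.19 and 0.20. DNAJB11 was lower under SAL in replicate 1 (-0.16), and without that replicate its value was 0.39 and passed (adjusted p = 0.00441), while without replicate 2 it was 0.05. HYOU1 passed without the filter. SDF2L1, which works with DNAJB11, was at 30.7, 20.2 and 14.0 CPM in DMSO and at 28.2, 28.7 and 12.7 CPM in SAL. It was higher in replicate 2 only, and its log2 change of 0.09 (SE 0.15, adjusted p = 0.740) turned to -0.15 without replicate 2 and to -0.0091 once GC content and gene length were corrected for.

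All 7 members of disulfide formation were higher in every pair, and 5 rose. PDIA5, a protein disulfide isomerase reported to act on the ATF6 protein, lies on chromosome 3 from 122785872 to 122944074 in GRCh37. It was at 23.2, 27.8 and 24.6 CPM in DMSO and at 40.1, 95.8 and 57.9 CPM in SAL. The DMSO libraries lay close together, the SAL libraries were all higher and spread out, and the groups did not overlap. Its log2 change of 1.29 (SE 0.16, adjusted p = 0.000196) was the largest of the 52, with 0.78, 1.78 and 1.23 in the pairs. In the annotation, 12% of its exon bases also belong to SEC22A on the same strand.

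ERO1L (now ERO1A), the oxidase that reloads protein disulfide isomerases, was at 61.2, 46.1 and 63.6 CPM in DMSO and at 88.7, 73.8 and 102 CPM in SAL, with no overlap. P4HB, the abundant protein disulfide isomerase PDIA1, was at 175, 1090 and 583 CPM in DMSO and at 292, 1464 and 886 CPM in SAL. Its level differed far more between replicate numbers than between treatments. The log2 fold changes were 0.63 for ERO1L (adjusted p = 0.000215) and 0.59 for P4HB (adjusted p = 0.000420). PDIA3 (ERp57), which serves glycoproteins bound to CALR and CANX, changed by 0.53 (adjusted p = 0.000932), and PDIA6 by 0.37 (adjusted p = 0.00939). For PDIA6, 25.2% of the exon bases overlap ATP6V1C2 on the other strand. The 2 that did not pass were PDIA4, at 123, 503 and 266 CPM in DMSO and 153, 568 and 311 CPM in SAL (log2 fold change 0.24, adjusted p = 0.0754), and the second oxidase ERO1LB (0.18, adjusted p = 0.480). PDIA4 passed after the GC and length correction. Without replicate 3, PDIA5 and ERO1L passed.

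The 7 sensors and transcription factors were uneven. ERN1, which encodes the kinase and nuclease IRE1 and lies on chromosome 17 from 62116440 to 62208179, was at 16.1, 53.1 and 35.4 CPM in DMSO and at 35.9, 101 and 87.8 CPM in SAL. The SAL library of replicate 1 was below the DMSO library of replicate 2, so the groups overlapped. Within pairs the log2 differences were 1.14, 0.93 and 1.305, and the fitted log2 change was 1.12 (SE 0.11, adjusted p = 2.93e-06). The other sensors did not pass. EIF2AK3 (PERK) was at 24.5, 28.4 and 41.6 CPM in DMSO and at 26.6, 34.6 and 43.99 CPM in SAL, a log2 difference of 0.16 (adjusted p = 0.374). ATF6 was at 72.1, 64.0 and 65.6 CPM in DMSO and at 77.0, 59.6 and 73.3 CPM in SAL, a log2 difference of 0.05 (adjusted p = 0.769). ATF6 was lower under SAL in replicate 2 and higher in replicates 1 and 3. That ERN1 and ATF6 or EIF2AK3 changed to a different degree was not tested.

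XBP1, the target of IRE1, was at 154, 162 and 101 CPM in DMSO and at 156, 209 and 110 CPM in SAL. Its total mRNA was higher in all 3 pairs (0.03, 0.36 and 0.11) and differed by 0.17 on the log2 scale (SE 0.10, adjusted p = 0.255). Gene counts do not show how much of the XBP1 mRNA was spliced. CREB3 (Luman), a membrane-bound transcription factor that is cut in the Golgi like ATF6, was at 10.04, 17.8 and 8.69 CPM in DMSO and at 19.3, 31.5 and 18.7 CPM in SAL. All SAL libraries of CREB3 were above all DMSO libraries, and the log2 change was 0.95 (SE 0.15, adjusted p = 0.000282). In the annotation, 8.2% of its exon bases overlap GBA2 on the other strand. CREB3L2, a relative that drives COPII genes, was at 22.9, 111 and 83.1 CPM in DMSO and at 36.9, 117 and 117 CPM in SAL, with log2 differences of 0.68, 0.08 and 0.50. WFS1, the ER membrane protein of Wolfram syndrome, was at 6.81, 38.0 and 19.6 CPM in DMSO and at 7.68, 51.3 and 28.8 CPM in SAL. CREB3L2 and WFS1 changed by 0.40 and 0.42 (adjusted p = 0.0258 and 0.0385 from edgeR). Neither passed with DESeq2 or without replicate 3, where ERN1 and CREB3 did, and WFS1 did not pass without replicate 2 or once GC content and gene length were corrected for.

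**Figure D3:**
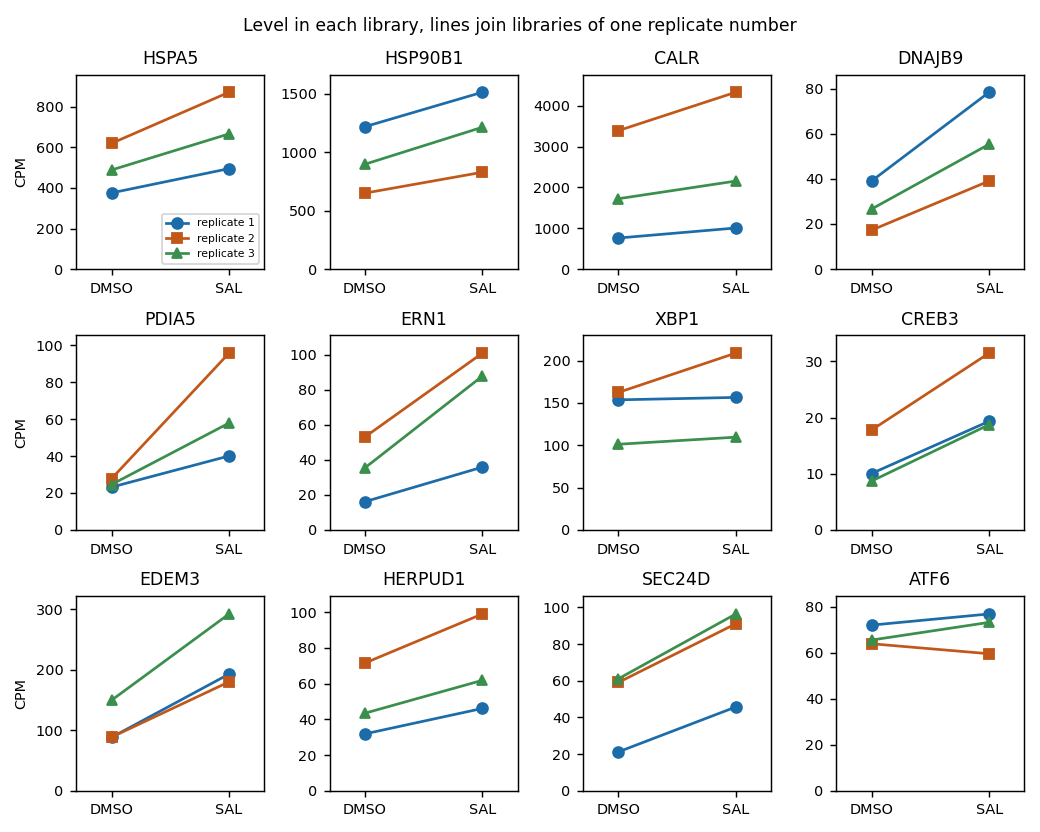
Level in CPM of 12 members in each of the 6 libraries, with DMSO at the left and SAL at the right of each panel and lines joining libraries of the same replicate number. DNAJB9, PDIA5, ERN1, CREB3 and EDEM3 climb steeply in all 3 pairs. XBP1 climbs slightly, most in replicate 2, while ATF6 stays nearly level, and the order of the replicates differs from gene to gene.

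Of the 10 ERAD members, 6 rose. EDEM3, a mannosidase that marks misfolded glycoproteins for degradation, lies on chromosome 1 from 184659371 to 184724041. It was at 88.3, 88.6 and 150 CPM in DMSO and at 193, 180 and 292 CPM in SAL. Every SAL library was above every DMSO library, and the pairs differed little (1.13, 1.02 and 0.97). The fitted log2 change was 1.04 (SE 0.09), with the smallest adjusted p of the 52 (1.05e-06). HERPUD1, a membrane component of the ERAD complex that is induced by ER stress, was at 31.8, 71.5 and 43.4 CPM in DMSO and at 46.1, 99.0 and 61.9 CPM in SAL. Its steps of 0.53, 0.47 and 0.51 were even, and the log2 change was 0.50 (adjusted p = 0.00180). The lectin OS9, which hands glycoproteins to the ubiquitin ligase, was at 21.4, 133 and 74.4 CPM in DMSO and at 24.6, 185 and 96.5 CPM in SAL, a log2 difference of 0.37 (adjusted p = 0.0163). For OS9, 23.9% of the exon bases overlap other genes.

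The ligase SYVN1 (HRD1) and its partner SEL1L changed by 0.36 and 0.31 on the log2 scale (adjusted p = 0.0415 and 0.0255), and the channel component DERL2 by 0.35 (adjusted p = 0.0279). Its relative DERL1 differed by -0.0022 on the log2 scale (SE 0.10). The sign of DERL1 has no meaning at this size, and it turned positive in some alternatives, to at most 0.10 without replicate 2. EDEM1 and EDEM2, the relatives of EDEM3, had log2 fold changes of 0.23 and 0.20, and SELK of 0.25, none past the test. EDEM1 was lower under SAL in replicate 2 (-0.13), and its value was 0.40 without that replicate (adjusted p = 0.0215) and 0.07 without replicate 1. Of the 6 that rose, EDEM3 alone passed without replicate 3, and EDEM3 and HERPUD1 passed with DESeq2. DERL2 did not pass without replicate 1, nor OS9 and SYVN1 without replicate 2. SYVN1 also did not pass once GC content and gene length were corrected for.

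Of the 7 translocation members, 4 rose. TRAM1, which assists nascent chains at the channel, was at 139, 89.6 and 116 CPM in DMSO and at 262, 108 and 172 CPM in SAL. The signal peptidase subunit SPCS3 was at 122, 83.7 and 109 CPM in DMSO and at 231, 99.1 and 161 CPM in SAL. SSR3, a subunit of the translocon-associated protein complex, was at 495, 335 and 353 CPM in DMSO and at 748, 385 and 510 CPM in SAL. In all 3 genes replicate 1 had the largest and replicate 2 the smallest step, from 0.92 to 0.27 for TRAM1. The log2 fold changes were 0.59, 0.58 and 0.44 (adjusted p = 0.00192, 0.00271 and 0.00480 from edgeR). For SSR3, 20.8% of the exon bases overlap another gene on the other strand. SSR1 changed by 0.29 (adjusted p = 0.0403), and it did not pass with DESeq2 or with the size factors of DESeq2 in edgeR. SPCS2 did not pass, at 0.40 (adjusted p = 0.0883), but did after the GC and length correction. None of the 4 passed without replicate 3, where their log2 fold changes were 0.22 to 0.60.

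The channel itself showed the limits of the data. SEC61A1, its pore-forming subunit, differed by 0.15 on the log2 scale (adjusted p = 0.315). The small subunit gene SEC61B, described here because of its spread, was at 93.2, 12.4 and 7.22 CPM in DMSO and at 98.2, 24.6 and 16.3 CPM in SAL. Replicate 1 stood far above the others in both groups. Its log2 change of 0.60 (SE 0.20, adjusted p = 0.0739) did not pass, but it passed with DESeq2, without the filter, without replicate 1 and after correcting for GC and gene length.

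Of the 9 transport members, 5 rose. KDELR3, a receptor that returns escaped ER chaperones from the Golgi, was at 10.9, 9.43 and 8.02 CPM in DMSO and at 20.4, 17.5 and 17.1 CPM in SAL. Its relative KDELR2 was at 195, 162 and 132 CPM in DMSO and at 308, 227 and 186 CPM in SAL. The SAL libraries of KDELR3 were all above its DMSO libraries, whereas those of KDELR2 overlapped in replicate 3. The log2 fold changes were 0.96 for KDELR3 (SE 0.16, adjusted p = 0.000502) and 0.55 for KDELR2 (SE 0.09, adjusted p = 0.000499). SEC24D, a COPII coat subunit that selects cargo, was at 21.2, 59.1 and 61.1 CPM in DMSO and at 45.7, 91.1 and 96.5 CPM in SAL, a log2 difference of 0.78 (adjusted p = 0.000138).

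The cargo receptor LMAN2 (VIP36) and the LMAN1 partner MCFD2 changed by 0.50 and 0.42 (adjusted p = 0.0276 and 0.00619). For MCFD2, 12.2% of the exon bases overlap other genes on the other strand. LMAN2 differed by only 0.01 in replicate 1 and did not pass without replicate 2 or without replicate 3. LMAN1 (ERGIC-53) itself differed by 0.02 on the log2 scale (SE 0.09), which was -0.03 without replicate 1. The COPII subunits SEC23B, SEC24A and SEC31A had log2 fold changes of 0.23, 0.16 and 0.28, none past the test. SEC23B and SEC31A passed after the GC and length correction, and SEC31A also without the filter or without replicate 2. KDELR3 and SEC24D passed without replicate 3.

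For comparison, a wider list of 153 genes of the same functions was counted, with no member in it. Of the 142 with enough counts, 47 rose (33.1%) and 3 fell (2.11%), at a median log2 change of 0.22. By the test, 17 of the 33 wider transport genes rose (51.5%) and none fell. The share that rose was 37.5% for disulfide formation, 28.6% for folding, 28.6% for translocation, 22.2% for sensors and 21.4% for ERAD. Of the disulfide and ERAD genes, 12.5% and 3.57% fell. Among all genes, 11.5% rose and 9.37% fell. AGR2, a disulfide isomerase of secretory epithelia, had a log2 fold change of 3.02, from 10.04, 1.504 and 3.34 CPM in DMSO to 64.2, 17.1 and 33.8 CPM in SAL (adjusted p = 1.22e-08). UBE2J1, a ubiquitin-conjugating enzyme of ERAD, changed by 1.43 and BCAP29, a membrane protein of the ER, by 1.36 (adjusted p = 1.45e-07 and 6.11e-08 from edgeR). CREB3L4, a relative of CREB3 that is known as androgen-induced, changed by 1.31 (adjusted p = 1.75e-07), and MIA3 (TANGO1), which loads bulky cargo, by 0.80 (adjusted p = 3.68e-05). The 3 that fell were GPX8, TMX1 and ERLIN1, with log2 fold changes of -0.62, -0.32 and -0.39. Without replicate 3, 11 of the wider list rose and 0 fell, against 4.41% and 2.84% of all genes.

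A list of 11 genes downstream of PERK was counted in the same way. Its summed level was 748, 1350 and 886 CPM in DMSO and 557, 1170 and 686 CPM in SAL, a ratio of 0.745, 0.867 and 0.775 in the pairs. Of the 11, 5 fell and 2 rose, at a median log2 change of -0.34. ATF4, the factor at the head of this branch, was at 303, 508 and 255 CPM in DMSO and at 225, 439 and 196 CPM in SAL, a log2 difference of -0.34 (adjusted p = 0.0158). DDIT3 (CHOP), a pro-apoptotic factor of prolonged stress, was at 35.4, 33.1 and 35.4 CPM in DMSO and at 19.3, 25.1 and 18.1 CPM in SAL. All SAL libraries of DDIT3 were below all DMSO libraries (log2 fold change -0.74, adjusted p = 0.00119). ASNS (asparagine synthetase), CHAC1 and SESN2 fell by 0.72, 0.79 and 0.56 on the log2 scale, and ATF3 and VLDLR rose by 0.60 and 1.01. TRIB3 differed by -0.32 on the log2 scale (adjusted p = 0.0652). Of the 5 that fell, 1 passed without replicate 3, and 3 passed with DESeq2. The 2 that rose, ATF3 and VLDLR, passed in each of these settings. Most of these genes also respond to amino acid supply. The difference between this list and the members was not tested.

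**Figure D4:**
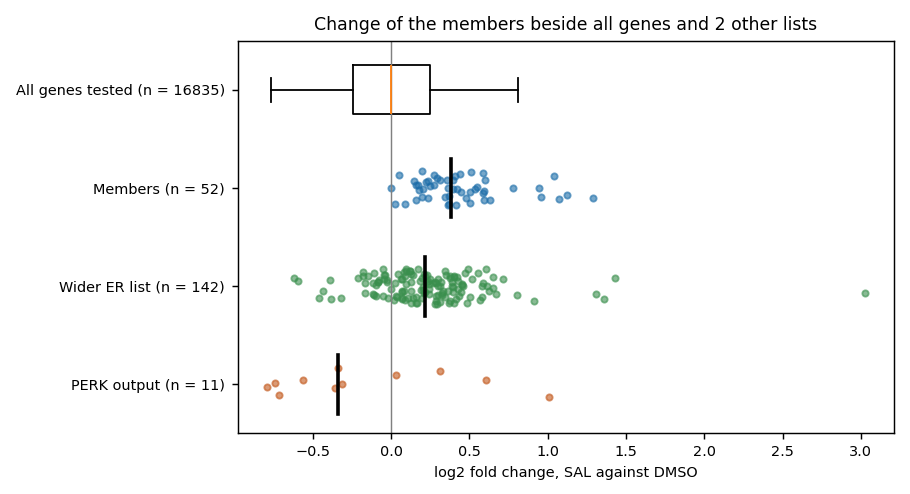
Log2 fold change, SAL against DMSO, of the 52 members, the 142 tested genes of the wider ER list and the 11 genes downstream of PERK, with 1 point per gene and a black line at the median (0.38, 0.22 and -0.34). The box shows the quartiles and median of all 16835 genes, with whiskers at the 5th and 95th percentiles, and most members lie right of its centre.

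The levels of the members differed more between replicate numbers than between treatments, and this spread went with the base composition of the genes. In the 14 members whose exons had a GC content of 50% or more, the DMSO library of replicate 2 was above that of replicate 1 by a median of 1.65 on the log2 scale. In the 29 members under 45% GC it was below by a median of -0.27. Over the 52 members the GC content and this replicate difference had a Pearson's r of 0.58, and 0.72 in the SAL libraries. It was weaker between DMSO replicates 3 and 1, with an r of 0.29. The genes share the same libraries, so this is a description. Between the GC content and the log2 fold change under SAL, r was -0.005. The median log2 fold change was 0.40 in both of these GC classes, with 10 of the 14 and 18 of the 29 members rising. In the 9 members from 45% to under 50% GC it was 0.37, and 4 of the 9 rose. After correcting for GC content and gene length, 35 members rose, against 12.9% of all genes. Of the 32 that rose before it, 30 passed, WFS1 and SYVN1 did not, and 5 other members did.

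**Figure D5:**
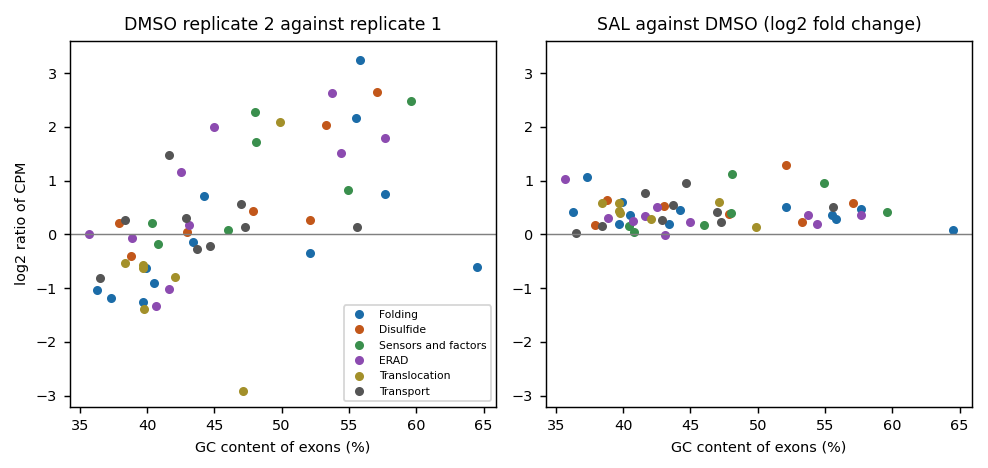
GC content of the exons in percent against the log2 ratio of CPM between DMSO replicates 2 and 1 (left) and against the log2 fold change, SAL against DMSO (right), with 1 point for each of the 52 members, coloured by role. The replicate ratio climbs with GC content at the left, and the points at the right form a flat band, almost all above 0.

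Per kilobase of the canonical transcript, the members spanned a wide range of levels. As means over the 3 libraries, CALR had 1029 CPM per kb in DMSO and 1313 in SAL, HSP90B1 332 and 426, and P4HB 253 and 361. The order depended on the replicate. In replicate 1, HSP90B1 was above CALR, at 438 against 399 CPM per kb in DMSO, and P4HB was at 71.7, below CANX at 200.3. HSPA5 stood at 126 and 173 CPM per kb, near SEC61A1 at 126 and 134. At the low end were ERO1LB (2.62 and 2.96), ERN1 (4.42 and 9.49) and SPCS2 (5.01 and 6.68). Differences between neighbours in this order were not tested.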

How the data were processed

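RNA-seq was analysed from 6 C4-2 libraries, grouped and numbered by their labels. The authors trimmed their paired reads, aligned only the first mate to hg19 (tophat 2.1.0) and counted reads on exons of gencode v19 with htseq-count 0.11.2, irrespective of strand. The deposited values are raw counts per gene symbol. Reads shared by overlapping genes cannot be assigned.

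Here, 523 rRNA gene symbols were removed after the paper's method, and 16835 genes passed filterByExpr. Genes were tested with edgeR 4.0.16 (R 4.3.3), TMM scaling, robust quasi-likelihood and the replicate number as a block, since the study used a paired test. Same-numbered libraries deviated together (correlations 0.89, 0.86 and 0.74 over all genes). P-values were Benjamini-Hochberg adjusted over all genes, and the call threshold was 0.05. Standard errors (SE) were taken as the size of each log2 fold change over the square root of its F value. Differences within pairs use a prior count of 2. DESeq2 1.42.0 was an alternative.

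The members and lists were chosen with earlier results of these data known. By rule, values per library are given for 15 fixed members and the 3 called members of each role with the largest absolute log2 fold change. The rule also names the 5 genes of the wider list with the smallest adjusted p in each direction, CREB3L4, and ATF4, DDIT3, TRIB3 and the called genes of the PERK list. SEC61B was added after its values were seen.

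GC content, lengths and positions were read from the GRCh37 genome (hg19) and GENCODE 44 mapped onto it, a later release than the authors used. Of 55765 symbols, 33529 matched a current and 1926 an older symbol. Promoter windows are from RefSeq (GRCh38.p14) and were placed in GRCh37 by exact match. A comparison of protein ends that had been planned was not run. A further luminal marker is not reported here.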

Additional observations from a re-analysis of the deposited data

How the results depend on the processing

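The number of calls depended on the replicate numbers. With no replicate block, although same-numbered libraries deviate together, 18 genes rose and 3 fell, with 0 members rising and 0 genes of the wider list rising or falling. The log2 fold changes of the 32 members that rose stayed positive there, from 0.31 to 1.36. Leaving out a replicate number gave 750 to 2443 genes rising, 483 to 1955 falling, 8 to 33 members rising, 11 to 55 genes of the wider list rising and 0 to 5 falling, and put the median of the members at 0.36 to 0.39. The lowest counts were without replicate 3. With DESeq2 and the block, 950 genes fell and 0 of the wider list did. At an adjusted p under 0.01, 1234 genes rose and 876 fell, and 29 of the wider list rose and 0 fell. No alternative made a member fall. With the block, 8 of the 32 members that rose passed under all 9 alternatives fitted. The sign reversed, in no case past the test, for SDF2L1 (-0.0091 with the GC content and gene length correction, and -0.15 to 0.23 without a replicate), ATF6 (-0.0028 to 0.11 without a replicate), DERL1 (0.012 with no filter, 0.024 with the correction, and -0.084 to 0.10 without a replicate) and LMAN1 (-0.025 to 0.060 without a replicate). The correction used 84% of the tested genes, with no correction for the rest. The causes of these differences were not tested. The 6 libraries limit the precision.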
